A study of Homo sapiens with 24 samples.

Results

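Small Cajal body RNAs (scaRNAs) were followed through RNA recovered with GFP-tagged RUVBL1 or RPAP3. The 10 scaRNAs described here are SCARNA2, SCARNA5, SCARNA6, SCARNA7, SCARNA9, SCARNA10, SCARNA12, SCARNA13, SCARNA17 and SCARNA28. They were found by their symbols among the 28307 gene rows of the count table. The symbols were chosen from results of these same libraries. Which measured values led to each choice is not recorded, so the counts and medians over the list are descriptions and lend no support to any direction. The table holds 19 further SCARNA rows, which serve as a comparison.

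The study asked which RNAs are bound, directly or through nascent chains, to RUVBL1, an AAA+ ATPase, and to RPAP3, a subunit of the R2TP co-chaperone. All libraries came from HCT116, an epithelial line from a human colorectal carcinoma, in which genome editing had fused GFP to the endogenous RUVBL1 or RPAP3. Each lysate was put either on GFP-Trap beads, which carry an antibody fragment against GFP (GFP beads below), or on agarose beads without it (uncoupled beads), and the RNA left on the beads was sequenced. The labels name neither clones nor cultures: a knock-in line may be 1 clone, replicates may share a culture, and the p-values then reflect technical spread alone.

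Each of 12 groups holds 2 libraries. The RUVBL1 line has 4 treatments on both kinds of beads: none, puromycin (100 µg/mL for 30 minutes), CB-6644 (0.5 µM for 16 hours) and CB-6644 with puromycin. The RPAP3 line has cells without treatment and cells given puromycin, on both kinds of beads, and no cells given CB-6644. Puromycin ends translation by releasing nascent chains from ribosomes. CB-6644 is a small molecule that inhibits the ATPase activity of RUVBL1 and RUVBL2. No parental line without GFP was used here, so each group on GFP beads is compared with the same line and treatment on uncoupled beads.

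ScaRNAs are guide RNAs that stay in Cajal bodies, nuclear bodies rich in the protein coilin. They base-pair with the small nuclear RNAs (snRNAs) of the spliceosome and direct ribose methylation, through box C/D elements and the methyltransferase fibrillarin, or pseudouridylation, through box H/ACA elements and the pseudouridine synthase dyskerin. Some carry both kinds of box. RUVBL1 and RUVBL2 are known as assembly factors of box C/D ribonucleoproteins, which they leave before the particle is mature.

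SCARNA2, SCARNA7, SCARNA9 and SCARNA17 belong to the box C/D class, SCARNA5, SCARNA6, SCARNA10 and SCARNA12 carry both kinds of box, and SCARNA13 is of the H/ACA class. The class of SCARNA28 is not given here. On GRCh38.p14, the annotated genes of the 10 are 194 to 421 bases long. SCARNA2 lies at chr1:109100193-109100612, and no protein-coding or lncRNA gene of the table spans it. SCARNA5 (chr2:233275726-233276003) and SCARNA6 (chr2:233288676-233288941) both lie within the span of ATG16L1, and SCARNA7 (chr3:160514907-160515236) within that of KPNA4. SCARNA9 (chr11:93721514-93721866) lies within CEP295, SCARNA10 (chr12:6510222-6510551) within NCAPD2, SCARNA12 (chr12:6967337-6967606) within PHB2 and SCARNA28 (chr7:98881697-98881890) within TRRAP. SCARNA13 (chr14:95533355-95533629) lies within SNHG10 and SCARNA17 (chr18:49814023-49814443) within SNHG22, which are both long non-coding RNA genes. Hosts were assigned by span alone, since no strand was given for the scaRNAs. Whether a scaRNA lies in an intron or an exon was not determined, except that SCARNA17 covers the first base of SNHG22, which is exonic.

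The annotated spans of SCARNA17 and its host SNHG22 share their lowest position. This is the start of SNHG22, and that of SCARNA17 only if it lies on the same strand, which was not given. A RefSeq promoter window (GRCh38.p14, chr18:49813773-49814072, plus strand of SNHG22) covers this position. The window is the only 1 found for any of the 10. It is shown because SCARNA17 had the widest gap between libraries of the kind described below. Capitals mark GGGCGG, the GC box bound by Sp1-type factors, and ATTGG, the reverse complement of the CCAAT box:
SNHG22: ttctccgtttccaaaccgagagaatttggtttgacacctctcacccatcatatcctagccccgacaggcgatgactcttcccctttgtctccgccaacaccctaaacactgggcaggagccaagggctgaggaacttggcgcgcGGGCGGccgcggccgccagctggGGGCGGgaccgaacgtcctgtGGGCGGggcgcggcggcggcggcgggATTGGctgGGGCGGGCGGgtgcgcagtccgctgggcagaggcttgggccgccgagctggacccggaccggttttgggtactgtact
GGGCGG stood 5 times on the printed strand, with 2 of these matches overlapping each other, and its reverse complement CCGCCC 0 times. CCAAT stood 0 times forward and 1 time in reverse, while the TATA box, searched as TATAAA, and the core of box C, searched as TGATGA, stood 0 times on either strand. Of 35116 RefSeq promoter windows of this length, 45.0% held GGGCGG, 34.6% CCAAT, 11.5% TATAAA and 10.9% TGATGA, each on either strand. The motifs were chosen after the values below were seen, and a match is a description of the letters.

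The 16 libraries of the RUVBL1 line held 9019665 to 33051512 counts and the 8 of the RPAP3 line 30844089 to 50394245. Levels below are CPM, read counts scaled to a common depth by library size and TMM factor, and all intervals and limits cover counting error or the spread of the fit only. On the first principal component of the RUVBL1 line (24.4% of variance), GFP-bead replicate 2 after CB-6644 and GFP-bead replicate 1 after both drugs stood apart, at 110.5 and 71.98. The epithelial markers EPCAM (88.0 to 471 CPM), KRT8 (552 to 3114 CPM) and KRT18 (399 to 1281 CPM) were high in every library. CDH1, also epithelial, was lower (13.9 to 57.1 CPM), and LGALS4, a colon gene, had a median of 0 CPM. Of the markers of other cell types, PTPRC, CD3E and HBB reached at most 0.376, 0.563 and 0.196 CPM, and the stromal genes COL1A1 and COL3A1 lay between 5.50 and 34.7 CPM and between 0 and 0.277 CPM. The endothelial genes PECAM1 and VWF reached 0.657 and 4.11 CPM, and the liver genes ALB and APOA1 at most 1.21 CPM.

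After CB-6644, given alone or with puromycin, 9 of the 10 scaRNAs were more abundant on RUVBL1-GFP beads than in any other kind of library, SCARNA9 by the smallest margin. Their summed level was 1022 and 1201 CPM in the GFP-bead libraries after CB-6644, and 1087 and 789.7 CPM after CB-6644 with puromycin. In the 12 other libraries of the RUVBL1 line it lay between 45.6 and 99.96 CPM, and in the 8 RPAP3 libraries between 31.7 and 58.8 CPM. As a share of all counts, the scaRNAs made up 0.105% and 0.144% after CB-6644, 0.127% and 0.0798% after both drugs, and 0.00302% to 0.0102% elsewhere. The 4 libraries that had both the GFP beads and the inhibitor thus held the 4 highest sums of all 24. Uncoupled beads of the same treatments summed to 69.7 ± 14.4 CPM after CB-6644 and 75.0 ± 1.38 CPM after both drugs (SD, n = 2 each). CPM is a share of the RNA left on the beads, so these levels do not give amounts per cell.

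**Figure D1:**
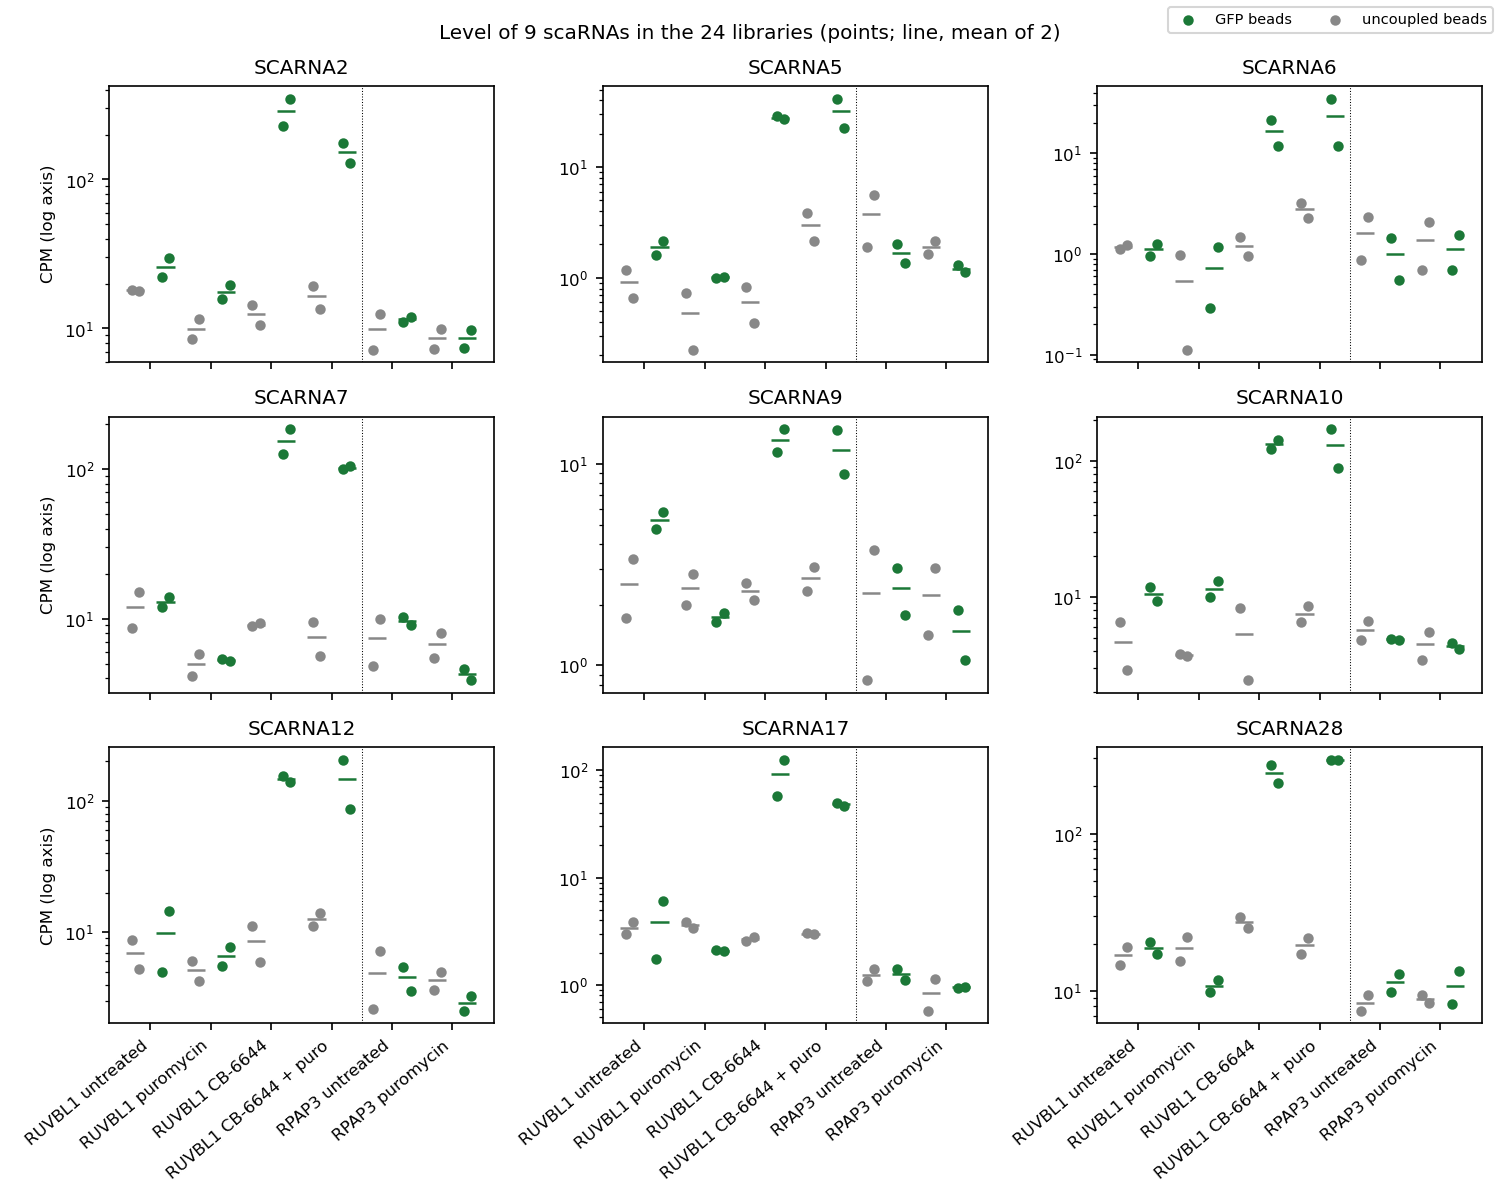
CPM on a log scale (vertical axis) of the 9 scaRNAs with counts in the 12 groups (horizontal axis, GFP beads in green and uncoupled beads in grey), with 1 point per library and a line at the mean of 2. In each panel the 4 GFP-bead libraries of cells given CB-6644 lie above all 20 other libraries, with the narrowest gap for SCARNA9 (8.88 against 5.77 CPM) and the widest, as a ratio, for SCARNA17 (46.1 against 6.05 CPM).

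For each of the 9 scaRNAs with counts, all 4 GFP-bead libraries of cells given CB-6644 lay above all 20 others. The same separation, examined after the values were seen, was met by 1.01% of the 16695 genes tested over both lines (168 genes). The lowest of the 4 exceeded the highest of the 20 by 1.54 times for SCARNA9, 3.66 times for SCARNA6, 4.04 times for SCARNA5, 4.36 times for SCARNA2 and 5.88 times for SCARNA12. For SCARNA7, SCARNA10, SCARNA28 and SCARNA17 the ratio was 6.66, 6.79, 7.01 and 7.62.

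Among the box C/D scaRNAs, SCARNA2, a guide of methylations in the U2 snRNA, had 4532 and 3777 counts (227.2 and 349.1 CPM) on GFP beads after CB-6644. On uncoupled beads of the same treatment it had 314 and 243 counts (14.4 and 10.5 CPM). Both GFP-bead libraries were thus more than an order of magnitude above both uncoupled ones. After both drugs SCARNA2 stood at 175.9 and 129.1 CPM on GFP beads against 19.4 and 13.6 CPM. The 20 libraries outside these GFP groups ran from 7.20 to 29.6 CPM with a median of 12.2 CPM, the highest being untreated GFP-bead replicate 2.

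SCARNA7, which guides methylation in the U1 snRNA, had 125.4 and 185.2 CPM on GFP beads after CB-6644 and 8.85 and 9.26 CPM on uncoupled beads. After both drugs it had 100.0 and 104.8 CPM against 9.41 and 5.58 CPM. The groups did not overlap in either treatment, and the GFP-bead replicates of the double treatment were close to each other. In the 20 other libraries SCARNA7 ran from 3.86 to 15.0 CPM.

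SCARNA17, which guides methylation in the U4 snRNA, had 57.8 and 125.3 CPM on GFP beads after CB-6644 (1153 and 1356 counts), the widest ratio between replicates in that group (2.17), with the higher value in the library that stood apart. Uncoupled beads gave 2.57 and 2.80 CPM. After both drugs the GFP beads held 50.0 and 46.1 CPM and the uncoupled beads 3.02 and 2.99 CPM, so all 4 GFP libraries were well clear of the uncoupled ones. Elsewhere SCARNA17 lay between 0.574 and 6.05 CPM.

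SCARNA9, a second guide of the U2 snRNA, moved least. It had 11.4 and 14.9 CPM on GFP beads after CB-6644 (228 and 161 counts) against 2.57 and 2.11 CPM on uncoupled beads, and 14.7 and 8.88 CPM against 2.34 and 3.08 CPM after both drugs. Its groups did not overlap, but untreated GFP beads already held 4.78 and 5.77 CPM, the highest values outside the CB-6644 groups on GFP beads. The table has a separate row for a related copy, SCARNA9L (chrX:20136066-20136413), and how reads that match both were counted is not given. SCARNA9L averaged 2.77 CPM on GFP beads after CB-6644 and 0.759 CPM on uncoupled beads, a log2 ratio of 1.80 ± 0.83 (SE) that was not called (adjusted p = 0.207).

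Of the scaRNAs with both kinds of box, SCARNA10 guides both types of modification in the U5 snRNA. It had 122.7 and 141.2 CPM on GFP beads after CB-6644 (2447 and 1527 counts) and 8.35 and 2.46 CPM on uncoupled beads. After both drugs it had 170.6 and 88.8 CPM against 6.53 and 8.62 CPM. The uncoupled libraries after CB-6644 differed from each other more than the GFP libraries did. In the 20 other libraries the range was 2.46 to 13.1 CPM.

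SCARNA12 behaved similarly, with 153.3 and 138.4 CPM on GFP beads after CB-6644 against 11.1 and 5.99 CPM on uncoupled beads. After both drugs it had 205.5 and 86.0 CPM against 11.1 and 14.0 CPM. The higher of the GFP values after both drugs belongs to the library that stood apart, and the lower one still exceeded every uncoupled library.

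SCARNA5 and SCARNA6, which both lie within ATG16L1, were the scarcest of the mixed class. SCARNA5 had 28.8 and 26.9 CPM on GFP beads after CB-6644 (574 and 291 counts) against 0.826 and 0.388 CPM (18 and 9 counts). SCARNA6 had 21.3 and 11.8 CPM (425 and 128 counts) against 1.47 and 0.948 CPM (32 and 22 counts). Their uncoupled levels therefore rest on few counts. After both drugs SCARNA5 had 41.5 and 22.5 CPM against 3.81 and 2.15 CPM, and SCARNA6 had 34.9 and 11.9 CPM against 3.23 and 2.30 CPM, again without overlap. After both drugs both GFP libraries lay above both uncoupled ones for 9 of 9 scaRNAs, as for 23.2% of all genes.

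SCARNA28 was the most abundant for its length. It had 5468 and 2256 counts (274.2 and 208.5 CPM) on GFP beads after CB-6644 against 29.8 and 25.1 CPM on uncoupled beads, and 294.3 and 291.7 CPM against 17.2 and 21.8 CPM after both drugs. The groups were far apart in both treatments. Its uncoupled libraries after CB-6644 were also the 2 highest of the 20 others, whose median was 14.1 CPM.

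SCARNA13 was listed at 0 in all 24 libraries. On library size alone, without the TMM factor, a count of 0 allows up to 0.0595 to 0.333 CPM, depending on the library (3 counts each). SCARNA13 was thus not detected, which does not show that the RNA was absent. Its host SNHG10 had counts in the same libraries, and how reads that overlap 2 genes were assigned is not given.

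Per kilobase of gene, the order on GFP beads after CB-6644 was SCARNA28 (1244 ± 239 CPM per kb; mean ± SD, n = 2), SCARNA2 (686 ± 205), SCARNA12 (540.1 ± 39.0), SCARNA7 (470.5 ± 128), SCARNA10 (399.8 ± 39.6), SCARNA17 (217.5 ± 113), SCARNA5 (100.1 ± 4.78), SCARNA6 (62.3 ± 25.2) and SCARNA9 (37.3 ± 6.91). The neighbours SCARNA2 and SCARNA12, SCARNA12 and SCARNA7, SCARNA7 and SCARNA10, SCARNA17 and SCARNA5, and SCARNA6 and SCARNA9 differed by less than the sum of their SDs. SCARNA28 was first and SCARNA9 last after both drugs too, at 1510.3 and 33.4 CPM per kb. On untreated GFP beads SCARNA28 (97.6) and SCARNA2 (61.6) were again first, while SCARNA9 (14.9) stood above SCARNA17 (9.26), SCARNA5 (6.79) and SCARNA6 (4.18).

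**Figure D2:**
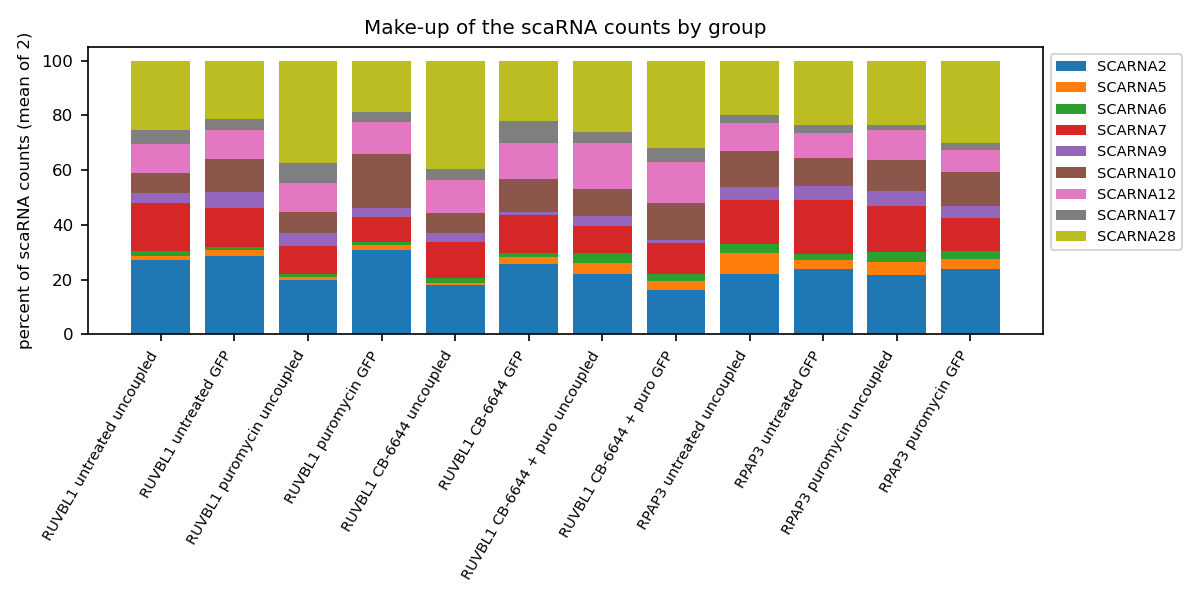
Share of the scaRNAs' own counts (percent, vertical axis) that came from each scaRNA, as the mean of the 2 libraries of each group (horizontal axis). SCARNA2 and SCARNA28 form the largest shares on GFP beads after CB-6644 (25.6% and 22.1%), as they do on untreated GFP beads (28.6% and 21.4%).

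The make-up of the scaRNA counts, was also examined after the values were seen. SCARNA9 held 5.85% ± 0.108 of them on untreated GFP beads and 1.18% ± 0.0851 after CB-6644 (mean ± SD, n = 2). SCARNA17 held 2.16% and 6.05% in the untreated libraries and 5.66% and 10.4% after CB-6644, so its groups overlapped. On uncoupled beads after CB-6644, SCARNA28 held 39.7% and SCARNA2 17.8%. These shares are descriptions and were not tested.

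Enrichment is given as the log2 ratio of GFP to uncoupled beads of the same treatment, with the SE of the edgeR fit, and a gene is called at a Benjamini-Hochberg adjusted p under 0.05 over all genes tested. Of the 10 scaRNAs, 9 passed the filter on low counts in each fit and SCARNA13 did not. In untreated cells 0 of 9 were called by edgeR on RUVBL1-GFP beads, where 0.933% of all genes were called. At an unadjusted p under 0.05 there was 1 (SCARNA9), and DESeq2 called 0. The ratios ran from -0.10 (SCARNA6) to 1.09 ± 0.51 (SCARNA10, adjusted p = 0.461), with a median of 0.43 beside -0.04 over all genes. SCARNA9 stood at 4.78 and 5.77 CPM against 1.72 and 3.38 CPM, a ratio of 1.07 ± 0.42 (adjusted p = 0.316). Both GFP libraries lay above both uncoupled ones for 4 of 9, namely SCARNA2, SCARNA5, SCARNA9 and SCARNA10, as for 19.6% of all genes.

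**Figure D3:**
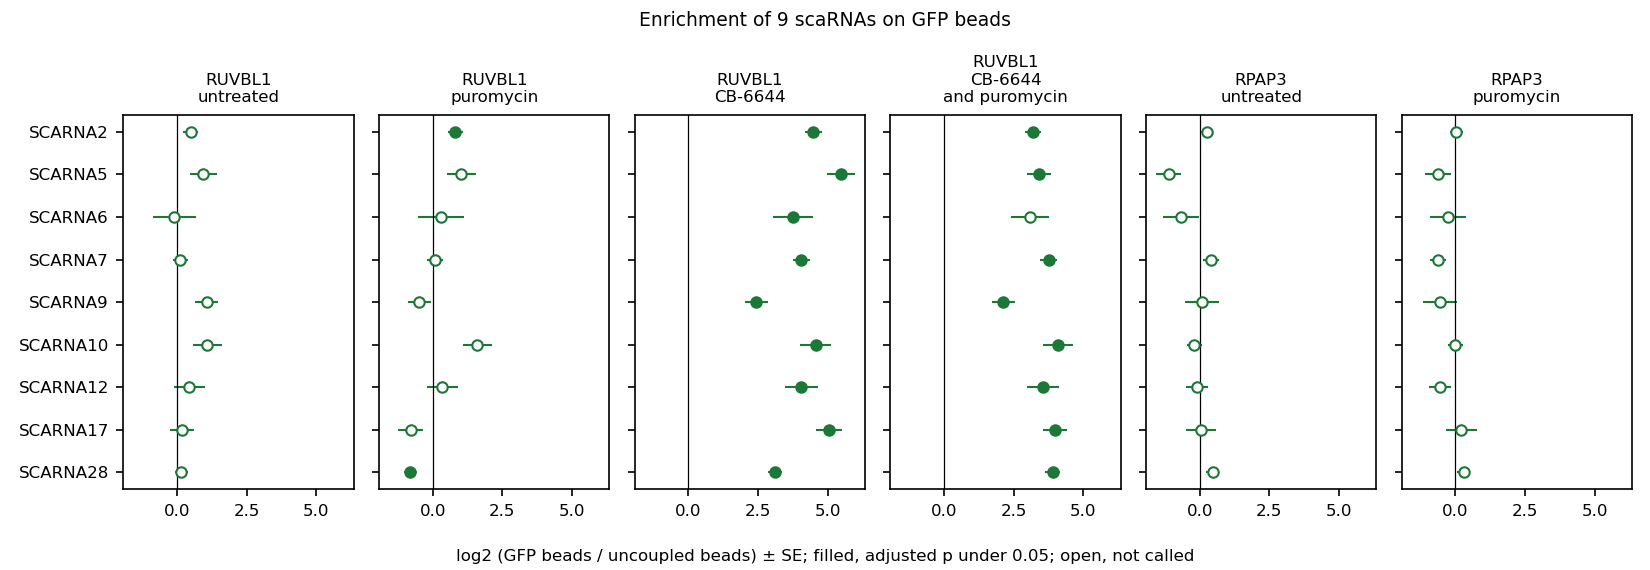
Log2 ratio of GFP to uncoupled beads (points, bars ± SE of the fit, filled where called) for each scaRNA in the 6 pairs of line and treatment. After CB-6644 the 9 values lie between 2.45 and 5.48, after both drugs between 2.12 and 4.10, and in the other 4 pairs between -1.12 and 1.60.

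After CB-6644, 9 of 9 tested scaRNAs were called higher on GFP beads, where 1.87% of all genes were called higher and 0.557% lower. Their median log2 ratio was 4.06 beside 0.02 over all genes, and both GFP libraries exceeded both uncoupled ones in 9 of 9, as in 24.8% of genes. SCARNA5 had the largest ratio, 5.48 ± 0.49 (44.6-fold, adjusted p = 1.5e-07), followed by SCARNA17 at 5.04 ± 0.46 (33.0-fold, adjusted p = 3.9e-06). SCARNA10 (4.57 ± 0.55) and SCARNA2 (4.49 ± 0.30) were enriched 23.8-fold and 22.5-fold. SCARNA7 (4.06 ± 0.30) and SCARNA12 (4.06 ± 0.60) were each enriched 16.6-fold, and SCARNA6 (3.75 ± 0.72) 13.4-fold. SCARNA28 (3.10 ± 0.25, 8.59-fold) and SCARNA9 (2.45 ± 0.42, 5.45-fold) had the smallest ratios. Their 95% intervals, 2.61 to 3.59 and 1.63 to 3.26, did not reach those of SCARNA2 (3.91 to 5.08), SCARNA5 (4.51 to 6.44) or SCARNA17 (4.14 to 5.95).

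Without uncoupled CB-6644 replicate 2, SCARNA6 (adjusted p = 0.308), SCARNA9 (0.0887) and SCARNA12 (0.170) were no longer called and 6 of 9 remained. Without uncoupled replicate 1, SCARNA6 (0.181) and SCARNA12 (0.0636) were lost and the ratios of SCARNA10 and SCARNA5 became 5.70 and 6.11. The ratio of SCARNA10 was 3.93 without uncoupled replicate 2. Without GFP replicate 2, the library that stood apart, SCARNA12 missed the threshold (0.0509) and SCARNA17 had a ratio of 4.40. Without both libraries that stood apart, 9 of 9 were called.

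With CB-6644 and puromycin together, 8 of 9 scaRNAs were called higher, against 0.557% of all genes. The median ratio was 3.54 beside 0 over all genes. SCARNA10 (4.10 ± 0.53), SCARNA17 (3.99 ± 0.44), SCARNA28 (3.90 ± 0.26, adjusted p = 3.6e-09) and SCARNA7 (3.75 ± 0.30) led. SCARNA12 (3.54 ± 0.58, adjusted p = 0.0231), SCARNA5 (3.41 ± 0.42), SCARNA2 (3.20 ± 0.28) and SCARNA9 (2.12 ± 0.41, adjusted p = 0.00953) were also called. SCARNA6, at 3.08 ± 0.68, was not (adjusted p = 0.0648), though its groups did not overlap. Without uncoupled replicate 1 or uncoupled replicate 2 of this treatment, SCARNA9, SCARNA10 and SCARNA12 were lost, with adjusted p of 0.369, 0.201 and 0.470, and of 0.129, 0.116 and 0.420. Without GFP replicate 1, the library that stood apart, SCARNA9 was lost (0.308, ratio 1.67) and the ratios of SCARNA10 and SCARNA12 were 3.51 and 2.74. Without both libraries that stood apart 6 of 9 were called, SCARNA9 (0.164) and SCARNA12 (0.0801) being lost.

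The change in enrichment with CB-6644, the difference between the log2 ratios with and without the inhibitor, was tested as an interaction. It was called for 5 of 9 scaRNAs, all higher, beside 0.138% of all genes called higher. SCARNA17 changed by 4.87 ± 0.62 (adjusted p = 0.000991), SCARNA5 by 4.54 ± 0.68 (0.00123), SCARNA2 by 4.00 ± 0.39 (6.3e-06), SCARNA7 by 3.94 ± 0.40 (8.2e-06) and SCARNA28 by 2.96 ± 0.34 (4.2e-05). The other 4 were not called: SCARNA6 at 3.84 ± 1.03 (0.212), SCARNA12 at 3.62 ± 0.80 (0.155), SCARNA10 at 3.48 ± 0.72 (0.107) and SCARNA9 at 1.38 ± 0.58 (0.371). Without uncoupled untreated replicate 1 SCARNA5 was no longer called (0.165), and without uncoupled CB-6644 replicate 1 its change was 5.16. The change of SCARNA17 was 4.21 without GFP untreated replicate 1, 6.00 without GFP untreated replicate 2 and 4.22 without GFP CB-6644 replicate 2. Without both libraries that stood apart 6 scaRNAs were called. In a fit of only the groups compared, SCARNA17 missed the threshold (4.90, adjusted p = 0.0545) and 4 were called.

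In cells given puromycin, the change with CB-6644 was called for 4 scaRNAs, beside 0.0751% of all genes called higher. SCARNA17 changed by 4.79 ± 0.61 (adjusted p = 0.00177), SCARNA28 by 4.71 ± 0.35 (3.3e-08), SCARNA7 by 3.68 ± 0.41 (2.9e-05) and SCARNA2 by 2.39 ± 0.38 (0.00467). SCARNA12 (3.20), SCARNA6 (2.78), SCARNA9 (2.61), SCARNA10 (2.50) and SCARNA5 (2.38) were not called, with adjusted p of 0.0946 (SCARNA9) or more. Without uncoupled replicate 2 of the double treatment SCARNA2 missed the threshold (0.0626).

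On uncoupled beads of the RUVBL1 line, CB-6644 was followed by 0 calls among the scaRNAs and 0 among all genes (0%) in edgeR, with 1 scaRNA at an unadjusted p under 0.05 and 0 called by DESeq2. That scaRNA was SCARNA28, at 29.8 and 25.1 CPM after CB-6644 against 14.7 and 19.2 CPM in untreated cells, a log2 difference of 0.70 ± 0.24 (adjusted p = 0.909). The groups did not overlap. The others lay between -0.68 (SCARNA5) and 0.25 (SCARNA12).

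After puromycin alone the scaRNAs summed to 51.5 and 63.4 CPM on RUVBL1-GFP beads, below both untreated libraries (80.6 and 99.96 CPM), and to 45.6 and 53.8 CPM on uncoupled beads, below both untreated ones (64.0 and 69.4 CPM). SCARNA9 had 1.64 and 1.83 CPM on GFP beads after puromycin against 4.78 and 5.77 CPM without it, and SCARNA7 5.34 and 5.18 CPM against 11.9 and 13.8 CPM. These levels on GFP beads were not tested against each other. The ratios to uncoupled beads went in both directions. On RUVBL1-GFP beads SCARNA2 had 15.7 and 19.6 CPM against 8.50 and 11.5 CPM on uncoupled beads, a log2 ratio of 0.81 ± 0.27 (adjusted p = 0.0469). SCARNA28 had 9.90 and 11.7 CPM against 15.6 and 22.0 CPM, a ratio of -0.80 ± 0.24 (adjusted p = 0.0283). These were the 1 of 9 called higher and the 1 of 9 called lower, beside 9.95% and 3.82% of all genes. SCARNA10, at 1.60 ± 0.52, was not called (adjusted p = 0.0614), nor was SCARNA17 at -0.80 ± 0.44 (0.255). Neither call held when any 1 of the 4 libraries was left out: 0 of 9 were then called, with adjusted p of 0.0669, 0.350, 0.404 and 0.0760 for SCARNA2 and 0.199, 0.122, 0.0649 and 0.314 for SCARNA28 (without GFP replicate 1, GFP replicate 2, uncoupled replicate 1 and uncoupled replicate 2).

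The change in RUVBL1 enrichment with puromycin was called for 0 of 9 scaRNAs by edgeR, beside 0.113% of genes. At an unadjusted p under 0.05 there were 2, SCARNA9 (-1.55 ± 0.59, adjusted p = 0.383) and SCARNA28 (-0.95 ± 0.34, adjusted p = 0.337), and DESeq2 called 0. In cells given CB-6644 the change with puromycin was likewise called for 0 of 9 by edgeR and by DESeq2, beside 0.0501% of genes. There 3 had an unadjusted p under 0.05: SCARNA5 (-2.07 ± 0.61), SCARNA2 (-1.29 ± 0.37) and SCARNA28 (0.80 ± 0.33). The 95% interval of SCARNA5 was -3.26 to -0.88. Without GFP CB-6644 replicate 1, 1 scaRNA was called lower. On uncoupled beads of the RUVBL1 line, puromycin gave 0 calls by edgeR among the scaRNAs and 0 among all genes (0%), with 2 scaRNAs at an unadjusted p under 0.05 and 1 called by DESeq2. SCARNA7 stood at 4.13 and 5.83 CPM against 8.71 and 15.0 CPM untreated (-1.26 ± 0.29, adjusted p = 0.234) and SCARNA2 at 8.50 and 11.5 CPM against 18.2 and 17.9 CPM (-0.89 ± 0.27, adjusted p = 0.481).

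In the RPAP3 line the summed scaRNA levels on GFP and uncoupled beads differed by less than the spread between libraries. They came to 48.3 ± 1.75 CPM on GFP beads and 45.2 ± 19.1 CPM on uncoupled beads in untreated cells, and to 35.7 ± 4.86 and 39.5 ± 8.32 CPM after puromycin (SD, n = 2 each). In untreated cells edgeR called 0 of 9 (1.54% of all genes were called), 1 had an unadjusted p under 0.05 and DESeq2 called 0. The log2 ratios ran from -1.12 ± 0.44 (SCARNA5, adjusted p = 0.427) to 0.46 ± 0.23 (SCARNA28), with a median of 0.06. SCARNA5 had 2.03 and 1.35 CPM on GFP beads and 1.90 and 5.56 CPM on uncoupled beads, so its groups overlapped and the ratio rests on uncoupled replicate B. After puromycin 0 of 9 were called by edgeR (0.46% of all genes) and by DESeq2, 1 had an unadjusted p under 0.05, and the range was -0.63 ± 0.29 (SCARNA7) to 0.30 (SCARNA28). The change between these treatments was called for 0 of 9 by both tools (0.25% of genes by edgeR), with SCARNA7 at -1.04 ± 0.40 the 1 value at an unadjusted p under 0.05. On uncoupled beads of this line 43% of all genes were called between puromycin and no treatment, and 0 of 9 scaRNAs by edgeR, with 0 at an unadjusted p under 0.05 and 0 called by DESeq2. They ranged there from -0.89 (SCARNA5) to 0.18 (SCARNA28).

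Between the lines, the RUVBL1 ratio minus the RPAP3 ratio was called for 0 of 9 scaRNAs in untreated cells by edgeR (0.407% of genes) and by DESeq2, with 1 at an unadjusted p under 0.05. That was SCARNA5, at 2.11 ± 0.68 (adjusted p = 0.222). After puromycin edgeR also called 0 of 9 (4.45% of genes), 4 had an unadjusted p under 0.05 and DESeq2 called 2. SCARNA28 stood at -1.07 ± 0.33 (adjusted p = 0.0579), SCARNA5 at 1.69 ± 0.74 (0.202), SCARNA10 at 1.64 ± 0.66 (0.182) and SCARNA2 at 0.81 ± 0.39 (0.246). Since the RPAP3 line was not given CB-6644, the large ratios after that drug have no counterpart there.

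**Figure D4:**
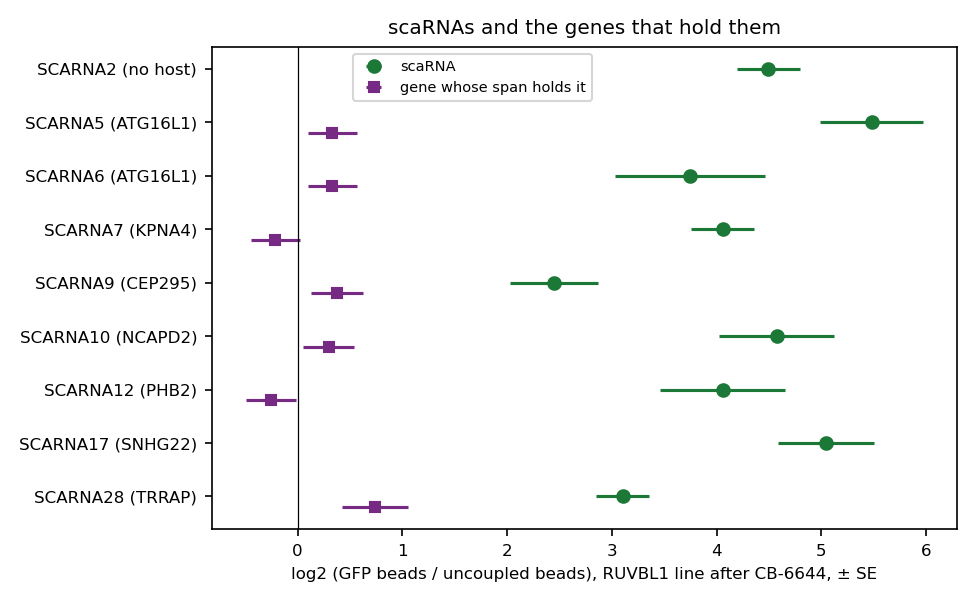
Log2 ratio of GFP to uncoupled beads after CB-6644 (bars ± SE of the fit) for each scaRNA, as circles, beside the gene whose span holds it, as squares, where that gene was tested. The scaRNA ratios lie between 2.45 and 5.48 and those of their hosts between -0.25 and 0.74.

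The genes that hold the scaRNAs had ratios near 0 after CB-6644, and 0 of 7 tested hosts were called by edgeR and by DESeq2. TRRAP, a scaffold of histone acetyltransferase complexes that holds SCARNA28, was the highest at 0.74 ± 0.31 (144.1 against 83.9 CPM, adjusted p = 0.176) and the 1 host with an unadjusted p under 0.05. CEP295 (0.38 ± 0.25, holding SCARNA9), ATG16L1 (0.33 ± 0.24, SCARNA5 and SCARNA6), the condensin subunit NCAPD2 (0.30 ± 0.24, SCARNA10) and SNHG10 (0.20 ± 0.38, SCARNA13) followed. The importin KPNA4 (SCARNA7) and the prohibitin PHB2 (SCARNA12) stood at -0.21 ± 0.23 and -0.25 ± 0.24. SNHG22, the host of SCARNA17, was too low to be tested, at 0.327 and 0.228 CPM on GFP and uncoupled beads. Under puromycin alone, TRRAP (1.48 ± 0.32, adjusted p = 0.00401) and NCAPD2 (1.02 ± 0.25, adjusted p = 0.0082) were higher on GFP beads. SCARNA28, which lies in TRRAP, was lower there, a call that was lost when any 1 library of that comparison was left out. SCARNA10, which lies in NCAPD2, had a ratio of 1.60 ± 0.52 that was not called. Both its GFP libraries lay above both uncoupled ones (9.96 and 13.1 against 3.84 and 3.70 CPM). After both drugs 0 of 7 hosts were called by edgeR and by DESeq2, with 2 at an unadjusted p under 0.05.

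The other 19 SCARNA rows were mostly scarce. Of these, 18 never passed 5 CPM in any library, a level chosen after the values were seen, and 8 were tested in the RUVBL1 line. The exception was SCARNA21 (chr17:7906123-7906260, 138 bases), with 63.0 and 36.8 CPM on GFP beads after CB-6644 against 4.82 and 2.97 CPM on uncoupled beads. It was called after CB-6644 (3.65 ± 0.74, adjusted p = 0.0403) and had a ratio of 3.20 ± 0.72 after both drugs (adjusted p = 0.137). It was the 1 called by edgeR of the 8 after CB-6644, where their median ratio was 1.05, and 0 were called after both drugs. DESeq2 called 1 of the 8 in each of these treatments, and gave no adjusted p for 3 and 2 of them. SCARNA3 was listed at 0 in all libraries, as SCARNA13 was. The 19 are 125 to 348 bases long, and the 10 described here 194 to 421 bases.

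Among the other guide RNAs, 75 of 134 tested box C/D snoRNAs (SNORD rows) were called higher after CB-6644, with a median ratio of 4.75, and 52 after both drugs, with a median of 4.13. Only 134 of the 357 SNORD rows passed the filter on low counts in this line. Rows near 0 in the other groups could pass through the GFP-bead libraries after CB-6644 alone, so these counts and medians support nothing about the family. Of 79 tested box H/ACA snoRNAs (SNORA rows) 0 were called in either treatment by edgeR, with medians of 2.14 and 0.73. At an unadjusted p under 0.05 there were 15 and 1. DESeq2 called 4 and 0, but gave no adjusted p for 39 and 17 of the 79. Only 79 of the 182 SNORA rows passed the same filter, so the same limit holds for their counts and medians. The difference between the families was not tested.

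Among 22 rows of spliceosomal snRNAs, 9 were tested in the RUVBL1 line. They had 0 calls by edgeR and by DESeq2 after CB-6644, 2 with an unadjusted p under 0.05, and ratios from -1.75 to 2.87. The U1 rows RNU1-1 to RNU1-4 were at 0 in all 24 libraries, and the U2 row RNU2-1 was at 0 throughout the RUVBL1 line. The U1 and U2 targets named above were thus not measured there, and the 0 calls do not cover them. Of 6 other structured RNAs, 5 were lower on GFP beads after CB-6644: RN7SK (-1.66 ± 0.42, adjusted p = 0.0402), RPPH1 (-1.60 ± 0.35), RMRP (-1.38 ± 0.33), RN7SL1 (-1.36 ± 0.36) and RN7SL2 (-1.36 ± 0.36). The sixth, TERC, the telomerase RNA, which shares the Cajal body localization element of H/ACA scaRNAs, stood at -0.03. After both drugs 0 of these 6 RNAs were called by edgeR and by DESeq2, with 4 at an unadjusted p under 0.05. Their median ratio there was -0.80. In the RPAP3 line TERC was higher on GFP beads both without treatment (1.06 ± 0.14, 192.9 against 94.9 CPM, adjusted p = 4.9e-05) and after puromycin (1.28 ± 0.14, adjusted p = 2.3e-05), where 0 of 9 scaRNAs were called.

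Messenger RNAs of the proteins that build or process scaRNAs had few calls after CB-6644. Of 8 core proteins of C/D and H/ACA particles 0 were called by edgeR (median ratio -0.35), with 4 at an unadjusted p under 0.05, and DESeq2 called 1 higher and 1 lower. Of 22 tested Cajal body and snRNP assembly proteins 0 were called by edgeR (median -0.36), with 11 at an unadjusted p under 0.05, and DESeq2 called 3 lower. Of 10 assembly factors, 2 were higher: RPAP3 (2.52 ± 0.45, adjusted p = 0.0139) and ZNHIT6, a box C/D assembly factor (0.94 ± 0.25, adjusted p = 0.0435). Of 14 genes for 3' end processing, INTS1, a subunit of the Integrator complex, was higher (1.50 ± 0.33, adjusted p = 0.0210). After both drugs 0 of the 10 assembly factors and 0 of the 14 processing genes were called by edgeR and by DESeq2. The highest ratios there were 0.22 and 0.76. Among the 8 core and the 22 Cajal body and snRNP assembly proteins both tools also called 0.

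Likeness to the scaRNAs' mean profile was measured over the 12 group means as the root mean square difference of centred log2 CPM, in which SCARNA12 (0.181) lay nearest to that mean and SCARNA9 (0.670) farthest. Of 1733 other genes, SNORD90 (0.307), SNORD18A (0.335), SCARNA21 (0.375), SNORD66 (0.400) and SNORD9 (0.401) were the nearest. The 4 SNORD rows averaged 1.04 to 3.64 CPM even on GFP beads after CB-6644, so their place depends on the prior count: with 0.5 in place of 2, 1 of the 5 was still among the nearest 5.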

How the data were processed

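The authors deposited 1 table of raw read counts per gene for all 24 libraries. Libraries were made with a SMART-seq Stranded kit, per the labels' protocols. TopHat2 2.1.1, featureCounts 2.0.3 and build hg38 are named in the submitters' processing notes, with bcl2fastq 2.20.0.422. The strand setting, multi-mapping, overlap rules and annotation release are not given in the sources used here, and no molecular identifiers separate PCR copies. Gene IDs (27757, all 29 SCARNA rows included) matched the RefSeq table of GRCh38.p14, the source of positions and sequence.

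Counts were tested with edgeR 4.0.16 in R 4.3.3 (filterByExpr, TMM, robust quasi-likelihood) over the 16 RUVBL1 libraries (15976 genes), the 8 RPAP3 libraries (15202) or all 24 (16695), giving 16 comparisons. The spread was pooled over each fit. SEs come from the F statistic and 95% intervals are 1.96 SE. DESeq2 1.42.0, other scalings, filters, fits and leaving out libraries were alternatives. Members, lists and tests were chosen with earlier results of these data known. Named genes are the members, other SCARNA rows, hosts, the list genes with the smallest p and the 5 nearest profiles. A "same strand" condition on hosts could not be applied.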

Additional observations from a re-analysis of the deposited data

How the results depend on the processing

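No enrichment or change of a called scaRNA reversed its sign under any alternative run. The 9 called after CB-6644 were 9 with other scalings, DESeq2, no filter, the replicate block and without both libraries that stood apart, 6 in a fit of only the groups compared, and 6 to 9 with 1 library left out. The 8 called after both drugs became 5 to 9 with 1 library left out. The change with CB-6644 rose from 5 to 8 with DESeq2 and without the filter, and was 4 in a fit of only the groups compared (SCARNA17 lost) and 4 to 6 with 1 library left out. Under puromycin it rose from 4 to 8 without the filter and to 6 with DESeq2 and with only the groups compared, and was 3 to 4 with 1 left out. The change with puromycin under CB-6644 was 0 to 1 with 1 left out.

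The 2 called after puromycin were 1 with RLE, upper-quartile or total-count scaling, 3 with DESeq2, without the filter, with the replicate block, without both libraries that stood apart, with only the groups compared and in the fit of all 24, and 0 with any 1 library left out. Puromycin on uncoupled beads went from 0 to 1 in the RUVBL1 line with DESeq2, without the filter and without both libraries, and to 0 to 1 in both lines with 1 left out. The difference between the lines went from 0 to 1 in untreated cells without the filter. After puromycin it went from 0 to 1 with RLE or upper-quartile scaling, the replicate block or without both libraries, to 2 with DESeq2, without the filter and with only the groups compared, and to 0 to 1 with 1 left out. The cause was not tested. The labels do not say whether the replicate numbers pair the libraries. Same-numbered libraries deviated together (correlation over 0.1) in 4 of 28 pairs of groups in the RUVBL1 line and 2 of 6 in the RPAP3 line. Pairs of GFP and uncoupled beads were not examined apart, so pairing was not excluded. With the replicate block 7 scaRNAs were called after both drugs.

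With 2 libraries a group, 0 calls in untreated cells and in the RPAP3 line do not show that the scaRNAs were absent from these proteins, and the uncoupled levels of SCARNA5 and SCARNA6 rest on few counts.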
